A study of Mus musculus with 16 samples.

Results

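The BMP-SMAD and Id genes described here are 10 genes chosen by name, Bmp4, Bmpr1a, Smad1, Smad5, Id1, Id2, Id3, Id4, Smad6 and Bambi. All 10 were found in each of 3 tables of RNA-seq values, out of 24320 gene names in the Pml table and 24394 in each of the arsenite and Trim33 tables. All 10 also passed the filter on low values, which kept a gene that reached 1 in 2 or more libraries of the table.

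The cells were mouse embryonic stem (ES) cells, line E14Tg2a.IV, labelled with the strain C57BL/6 and grown without feeder cells in serum with LIF, and the growth protocol also names the line CCE. The Pml table held Pml-knockout (KO) and wild-type (WT) cells with no treatment named, and PML is the protein around which PML nuclear bodies assemble. The arsenite table held cells given 200 µM sodium arsenite, an oxidant and proteotoxic stressor, for 2 h, and untreated cells. The Trim33 table held 4 groups treated for 2 h: cells labelled Trim33 KO with 50 ng/ml activin A, labelled WT with activin A, labelled KO with 10 µM SB431542, and labelled WT with SB431542. TRIM33 is a chromatin protein that can join activated SMADs. Activin A signals through SMAD2 and SMAD3, and SB431542 blocks the type I receptors for activin, Nodal and TGF-beta and largely spares those for BMP. Each of the 8 groups had 2 libraries, 16 in all; the labels do not say how either knockout was made, whether it is a single clone, or whether the libraries of a group are separate cultures, so p-values measure a spread that may be technical.

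Bone morphogenetic proteins (BMPs) bind paired type I and type II receptor kinases at the cell surface, which phosphorylate SMAD1 and SMAD5. These bind SMAD4, enter the nucleus and switch on target genes, among which the Id genes are the best known. Id proteins hold a helix-loop-helix domain without a DNA-binding region and tie up the E proteins that lineage-specifying factors need, and in mouse ES cells grown in serum or BMP4 with LIF they are known to hold back neural differentiation. Smad6 and Bambi encode inhibitors that the pathway itself induces in many cells.

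The promoter windows of the 3 members whose changes lead the results are shown because motifs tied to BMP-activated SMADs can be looked for in them. Each window is the 250 bases before a RefSeq transcription start on GRCm38.p6, printed 5′ to 3′ on the gene's strand, with motif matches in capitals. The first motif searched was the GC-rich hexamer GGCGCC. The second was the SMAD-binding box, CAGAC. The third was TGACNNNGC, which is not a SMAD motif. All were searched on both strands. Windows were found for 8 of the 10 members. Those of Id2 and Id3 lie inside the gene coordinates given below, downstream of the outermost annotated start of each gene.
Id2, chr12:25096093-25096342, minus strand: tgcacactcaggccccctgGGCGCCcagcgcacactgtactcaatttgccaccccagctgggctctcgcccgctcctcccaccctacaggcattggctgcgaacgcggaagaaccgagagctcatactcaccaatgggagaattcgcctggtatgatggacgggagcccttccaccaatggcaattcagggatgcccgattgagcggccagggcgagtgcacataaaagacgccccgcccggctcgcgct
Id3, chr4:136143572-136143821, plus strand: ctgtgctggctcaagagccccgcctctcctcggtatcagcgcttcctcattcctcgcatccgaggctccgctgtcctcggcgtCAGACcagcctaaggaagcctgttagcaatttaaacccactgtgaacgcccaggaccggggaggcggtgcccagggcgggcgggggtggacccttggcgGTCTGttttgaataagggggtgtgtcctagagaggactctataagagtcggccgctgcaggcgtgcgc
Smad6, chr9:64022060-64022309, minus strand: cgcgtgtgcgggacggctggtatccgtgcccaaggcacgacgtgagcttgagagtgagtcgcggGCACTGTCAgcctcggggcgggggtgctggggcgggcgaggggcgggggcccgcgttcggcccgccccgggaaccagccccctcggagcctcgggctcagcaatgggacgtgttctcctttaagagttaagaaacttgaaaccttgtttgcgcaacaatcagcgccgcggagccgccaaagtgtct
The Id2 window held 1 GGCGCC, 231 bases before the start. The Id3 window held CAGAC at 167 and at 68 bases before the start. The Smad6 window held 1 TGACNNNGC, on the opposite strand, 186 bases before the start. Among 32851 such windows of all genes, 9.59% held GGCGCC, 42.2% held CAGAC and 10.2% held TGACNNNGC, so these matches describe the sequence and do not mark a binding site.

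Depth could be recovered for the arsenite table (46700000 to 48500000 reads per library) and the Trim33 table (31200000 to 39500000) and is unknown for the Pml table. The median absolute log2 difference between the libraries of a group was 0.066 to 0.086 in the Pml and arsenite tables and 0.146 to 0.242 in the Trim33 table, where it was largest for the libraries labelled KO with SB431542. The targeted gene was checked first. Pml stood at 32.0 and 33.5 FPKM in Pml KO libraries, against 49.8 and 45.1 FPKM in WT libraries (log2 fold change -0.52 ± 0.06 SE, limma adjusted p = 4.89e-04), so the KO mean was still 0.690 of the WT mean; the sources used here do not say whether the counted exons lie in the altered part. Trim33 stood at 2.53 and 2.79 RPKM in the libraries labelled KO with activin A and 20.1 and 23.5 in those labelled WT with activin A. With SB431542 it went against the labels, at 18.3 and 24.6 RPKM in the libraries labelled KO and 2.94 and 2.44 in those labelled WT. Y-linked genes followed Trim33 and not the labels. Eif2s3y, which encodes a translation initiation factor subunit, stood at 0.0651 and 0 RPKM in the libraries labelled KO with activin A, against 38.3 and 41.0 in those labelled WT with activin A. With SB431542 it stood at 39.96 and 38.5 RPKM in the libraries labelled KO, against 0.143 and 0.0647 in those labelled WT, and Ddx3y and Uty were arranged in the same way. Of all 11914 genes tested, 86.2% differed in opposite directions between the labels in the 2 treatments. Directions by genotype label in SB431542 libraries are therefore given only as directions between labels, and in this table low Trim33 cannot be told apart from the near absence of Y-linked RNA.

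Within every one of the 8 groups Id1 had the highest mean level of the 10 genes per length of transcript, although it overlapped with Id3 in the libraries labelled WT with SB431542. In Pml KO cells the order was Id1 at 162 ± 5.20 FPKM (mean ± SD, n = 2 here and for all group means), Id3 at 88.9 ± 2.86, Bmp4 at 39.7 ± 1.67, Id2 at 38.3 ± 1.25 and Bmpr1a at 14.3 ± 0.393. Bmp4 and Id2 overlapped there, whereas in WT cells Bmp4, at 53.0 ± 1.495 FPKM, lay above Id2, at 17.2 ± 1.66, and overlapped with Id3. Smad5, Smad6 and Smad1 were between 5.33 and 7.78 FPKM in each of the 4 libraries, and Bambi and Id4 were between 1.55 and 3.10. In the arsenite table Id2 was second to Id1 in both groups, although Id2 and Id3 overlapped in untreated cells. The lowest 2 places in that table were held by Id4 and Bambi in arsenite-treated cells and by Smad6 and Bambi in untreated cells, so Smad6 moved up the order.

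In Pml KO cells Id2, Id3 and Id1 rose and the ligand Bmp4 fell, while the receptor, the SMADs and the inhibitors did not pass the test. Thus 3 members were called higher and 1 lower of 10 tested at an adjusted p under 0.05, where 16.6% of all 11648 genes tested were called higher, 18.9% lower and 35.5% in either direction. The median log2 fold change was 0.19 over the members and -0.02 over all genes. The genotypes differed in Y-linked RNA as well: Eif2s3y had 1.10 and 0.753 FPKM in KO libraries, against 16.2 and 20.6 in WT libraries, and Ddx3y had 0.25 and 0.141 FPKM in KO libraries, against 4.39 and 3.99 in WT libraries. Whatever else separates the KO from the WT cells cannot be told apart from the Pml genotype. These are bulk samples, in which fewer cells of a type and less RNA per cell cannot be told apart.

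Bmp4 (chr14:46383520-46390669, minus strand) encodes the secreted ligand. It stood at 40.8 and 38.5 FPKM in Pml KO libraries, against 54.1 and 51.9 FPKM in WT libraries. Both KO libraries lay below both WT libraries, and the KO mean was 0.748 of the WT mean (log2 fold change -0.41 ± 0.06, adjusted p = 8.57e-04). Exons of Bmp4 overlap with those of Gm15217, a protein-coding gene on the opposite strand, over 89 bases. Whether reads were counted by strand is not given. All log2 fold changes here are on the log2(value + 1) scale with the standard error and the adjusted p from limma.

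Bmpr1a (chr14:34410734-34503341, minus strand) encodes a type I BMP receptor. It stood at 14.0 and 14.6 FPKM in Pml KO libraries, against 11.9 and 12.8 FPKM in WT libraries. The groups did not overlap, but the difference of 0.20 ± 0.07 did not pass the test (adjusted p = 0.0626). The signal transducers Smad1 (chr8:79338395-79399518, minus strand) and Smad5 (chr13:56703010-56742377, plus strand) differed in opposite directions, and neither passed. Smad1 had 5.33 and 5.95 FPKM in KO libraries, against 6.80 and 6.18 FPKM in WT libraries (-0.17 ± 0.09, adjusted p = 0.184). Smad5 had 7.71 and 7.78 FPKM in KO libraries, against 6.31 and 7.05 FPKM in WT libraries (0.19 ± 0.09, adjusted p = 0.123). Its exons overlap with those of Gm27301, on the same strand, over 100 bases.

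The Id genes did not move as one family. Id2 (chr12:25093799-25097140, minus strand) stood at 39.2 and 37.4 FPKM in Pml KO libraries, against 16.05 and 18.4 FPKM in WT libraries. Both KO libraries were far above both WT libraries, and the mean was 2.22-fold higher (log2 1.11 ± 0.07, adjusted p = 1.50e-05). Id3 (chr4:136143497-136145755, plus strand) stood at 90.9 and 86.9 FPKM in KO libraries, against 57.5 and 50.7 FPKM in WT libraries. Again no library crossed between the groups, and the mean was 1.64-fold higher (0.71 ± 0.07, adjusted p = 1.04e-04).

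Id1 (chr2:152736251-152737410, plus strand), the most abundant member, showed a smaller difference. It had 158 and 165 FPKM in KO libraries, against 145 and 130 in WT libraries. The groups did not overlap and the mean was 1.18-fold higher (0.23 ± 0.06, adjusted p = 0.0181), a call that was lost without Pml KO replicate 2 (adjusted p = 0.0594). Id4 (chr13:48261228-48266026, plus strand), the scarcest of the Id genes here, had 2.38 and 1.55 FPKM in KO libraries, against 2.38 and 2.47 FPKM in WT libraries. One KO library matched WT and the other was lower, and the difference did not pass (-0.22 ± 0.14, adjusted p = 0.259).

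The inhibitors differed little. Smad6 (chr9:63953076-64022059, minus strand) encodes an inhibitory SMAD that blocks BMP receptor signalling, and had 5.59 and 5.94 FPKM in Pml KO libraries, against 6.62 and 5.91 FPKM in WT libraries. The groups overlapped (-0.10 ± 0.09, adjusted p = 0.428). Bambi (chromosome 18) encodes a receptor-like protein without a kinase domain, and had 3.10 and 2.40 FPKM in KO libraries, against 2.12 and 1.99 FPKM in WT libraries. Both KO libraries were higher, without passing the test (0.29 ± 0.12, adjusted p = 0.0972).

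**Figure D1:**
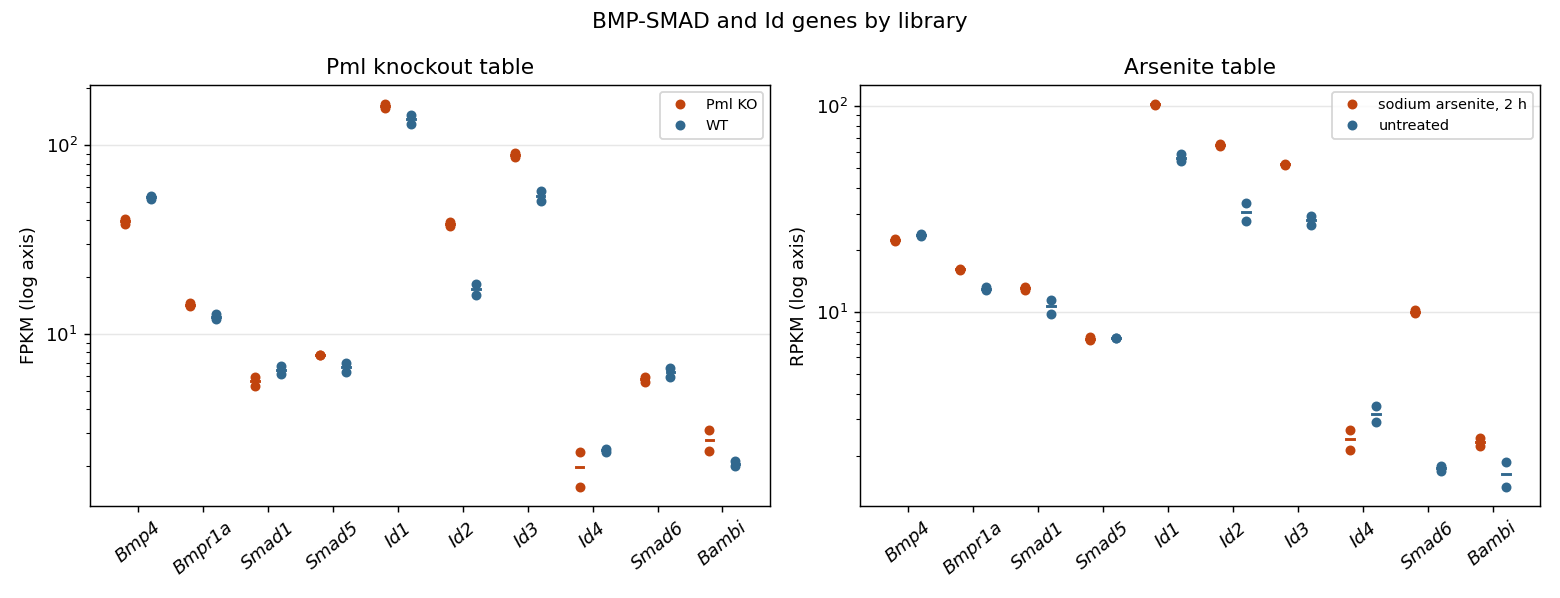
Level of each of the 10 genes in each library, on log axes, with points for libraries and short lines for group means; left, FPKM in Pml KO and WT cells; right, RPKM in arsenite-treated and untreated cells. Id2 and Id3 stand apart by genotype on the left, and Smad6, Id1, Id2 and Id3 stand apart by treatment on the right.

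Of 52 other genes of the BMP pathway, 28 could be tested in the Pml table. In Pml KO cells 13 were called higher and 4 lower, with a median log2 fold change of 0.27. The share called was 60.7%, against 35.5% of all genes. Secreted antagonists, which bind BMPs or related ligands outside the cell, were called in 6 of 6 tested cases, 5 of them higher. Nbl1 was higher by a log2 fold change of 1.80 ± 0.11, Nog by 1.52 ± 0.14 and Fstl1 by 0.97 ± 0.07, whereas Chrd was lower at -0.49. Among target genes and co-factors 4 of 7 were higher and 1 lower. Those higher were Hand1 (3.20 ± 0.11), Msx2 (1.79 ± 0.10), Msx1 (1.37 ± 0.11) and Gata3 (0.99 ± 0.12), all encoding transcription factors. Hand1, Msx1, Gata3, Nbl1 and Nog had WT means under 1 FPKM and passed the filter only with the KO libraries. A call as lower was thus hardly open to them, and the counts given here include them. The ligand Bmp8b was higher (1.902 ± 0.10), at 6.39 and 7.15 FPKM in KO libraries, against 1.12 and 1.03 in WT libraries. Among receptors and co-receptors 3 of 7 were higher, led by Eng (0.60 ± 0.09), a co-receptor for BMP and TGF-beta ligands, and Acvr2b was lower (-0.26). Of the E proteins that Id proteins bind, Tcf12 rose (0.52 ± 0.08) and Tcf3 fell (-0.33 ± 0.07).

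Markers of other cell types moved with genotype in the same libraries. The summed level of 11 trophectoderm markers, Hand1 and Gata3 among them, was 753 to 764 FPKM in Pml KO libraries, against 74.4 to 80.7 FPKM in WT libraries, with 9 of 10 tested called higher and 1 lower. For 11 fibroblast and smooth muscle markers the sum was 540.3 to 570.2 FPKM in KO libraries, against 109 to 110.2 in WT libraries, with 8 of 9 higher and 1 lower; Postn and Lum were at 0 in both WT libraries. For 8 primitive streak and mesoderm markers the sum was 22.0 to 22.6 FPKM in KO libraries, against 4.96 to 5.01 in WT libraries, with 3 of 3 tested higher. The 9 primitive endoderm markers summed to 46.8 to 47.1 FPKM in KO libraries, against 38.7 to 40.6 in WT libraries (1 higher and 3 lower of 5 tested), and the 7 neural markers to 99.6 to 100.3 FPKM in KO libraries, against 105 to 107 in WT libraries (1 higher and 3 lower of 4 tested). The 10 ES cell markers summed to 7910.2 to 8157 FPKM in KO libraries, against 8268 to 8296 in WT libraries, with 1 higher and 3 lower. Cdx2, Krt7, Gata3, Hand1, Col1a1, Col1a2, Col3a1, Pdgfrb and Wnt3 had WT means under 1 FPKM and passed the filter only with the KO libraries. A call as lower was hardly open to them. The reverse held for Gata4 and Sox7, with KO means under 1 FPKM. The part of all these marker lists in the Id2, Id3, Id1 and Bmp4 results was not tested.

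After 2 h of arsenite, Smad6 showed the largest change of the 10 genes, and Id1, Id2 and Id3 rose together while Bmp4 and Smad5 stayed without a call. In all, 7 members were called higher and 1 lower of 10 tested, where 40.7% of all 12136 genes tested were called higher, 27% lower and 67.7% in either direction. With so many genes called, the share of members called is close to that of all genes; the median log2 fold change was 0.32 over the members and 0.08 over all genes.

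Smad6 had 10.1 and 9.83 RPKM in arsenite libraries, against 1.79 and 1.67 RPKM in untreated libraries. The arsenite libraries were far above the untreated ones, and the mean was 5.77-fold higher (log2 2.01 ± 0.08, adjusted p = 1.12e-06). At these depths a value of 1 RPKM stands for 46.7 to 48.5 reads per kilobase, so the untreated Smad6 signal was not at the floor. None of the 50-base words of Smad6 exons was shared with another gene.

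Id2 had 65.4 and 64.0 RPKM in arsenite libraries, against 33.9 and 27.4 RPKM in untreated libraries. Its mean was 2.11-fold higher, with no overlap (1.06 ± 0.09, adjusted p = 3.35e-05). Id3 had 52.4 and 51.9 RPKM in arsenite libraries, against 29.2 and 26.5 RPKM in untreated libraries. Its arsenite values nearly coincided and lay above both untreated ones, a 1.87-fold higher mean (0.88 ± 0.05, adjusted p = 7.43e-06). Id1 had 102 and 101 RPKM in arsenite libraries, against 58.1 and 54.1 RPKM in untreated libraries. The mean was 1.81-fold higher, again with no overlap (0.85 ± 0.04, adjusted p = 3.83e-06).

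Id4 went the other way. It had 2.12 and 2.67 RPKM in arsenite libraries, against 3.49 and 2.91 RPKM in untreated libraries. The groups did not overlap, and it was called lower (-0.31 ± 0.12, adjusted p = 0.0466), but not without untreated replicate 1 (adjusted p = 0.193) or arsenite replicate 1 (adjusted p = 0.261). Exons of Id4 overlap with the antisense transcripts A330033J07Rik over 82 bases and Gm49291 over 171 bases, and the sources used here do not say whether reads were counted by strand.

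The ligand Bmp4 had 22.7 and 22.0 RPKM in arsenite libraries, against 24.0 and 23.2 RPKM in untreated libraries. The arsenite values were slightly lower without passing the test (-0.08 ± 0.05, adjusted p = 0.188); under median-of-ratios scaling Bmp4 was called lower (-0.22, adjusted p = 0.00617). Bmpr1a had 16.1 and 15.95 RPKM in arsenite libraries, against 12.7 and 13.2 RPKM in untreated libraries, and was called higher (0.29 ± 0.05, adjusted p = 0.00228). Its groups did not overlap. Its exons overlap with those of the antisense gene Gm17110 over 290 bases.

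Smad1 had 12.8 and 13.2 RPKM in arsenite libraries, against 9.79 and 11.4 RPKM in untreated libraries (0.27 ± 0.08, adjusted p = 0.0157). Bambi had 2.44 and 2.22 RPKM in arsenite libraries, against 1.41 and 1.86 RPKM in untreated libraries (0.34 ± 0.11, adjusted p = 0.0287). Both were called higher without overlap of the groups, and both lost the call under median-of-ratios scaling (Smad1 0.14, adjusted p = 0.125; Bambi 0.25, adjusted p = 0.0813), under quantile normalization (Smad1 adjusted p = 0.0925; Bambi adjusted p = 0.422) and without untreated replicate 1 (Smad1 adjusted p = 0.0786; Bambi adjusted p = 0.138). Leaving out arsenite replicate 2 also ended both calls (Smad1 adjusted p = 0.0666; Bambi adjusted p = 0.0716), and leaving out arsenite replicate 1 ended that of Bambi (adjusted p = 0.155). Smad5 had 7.50 and 7.27 RPKM in arsenite libraries, against 7.42 and 7.48 RPKM in untreated libraries, and the groups overlapped (-0.01 ± 0.07, adjusted p = 0.895).

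Scaling mattered for the whole arsenite table, since median-of-ratios scaling placed the median of all genes at -0.05 in place of 0.08 and gave 3589 higher of 8218 genes called, where the deposited scaling gave 4939 higher of 8221. Relative to that shift, Smad6 (1.89), Id2 (0.92), Id3 (0.74), Id1 (0.70) and Bmpr1a (0.15) were still called higher under median-of-ratios scaling.

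Of the 52 other pathway genes 29 were tested in the arsenite table, of which 18 were called higher and 1 lower, with a median log2 fold change of 0.41. The share called, 65.5%, was close to the 67.7% of all genes, of which 40.7% were called higher and 27% lower. Unlike in the Pml table, antagonists made up none of the higher ones, with 0 of 5 called higher by limma. Dand5, a secreted antagonist best known for binding Nodal, was lower (-0.49 ± 0.10). The genes tested differ, since Nbl1 and Nog were not tested with arsenite and Dand5 was not tested in the Pml table. Fst, Fstl1 and Twsg1 were called higher in Pml KO cells and were not called with arsenite. Whether that contrast between the tables is larger than error was not tested. Among intracellular inhibitors, Smad7, the inhibitory SMAD shared by the BMP and activin branches, was higher (0.83 ± 0.04), at 47.3 and 48.3 RPKM in arsenite libraries, against 26.0 and 26.9 in untreated libraries. Tob1 (0.38 ± 0.06) and Ski (0.34 ± 0.05), encoding repressors of SMAD activity, were higher too. All 6 tested target genes and co-factors were higher, led by Gata3 (2.27 ± 0.10), Hand1 (1.77 ± 0.09) and the ERK phosphatase gene Dusp9 (1.02 ± 0.05). The ligand genes Bmp8a (1.15 ± 0.10), Bmp7 (0.91 ± 0.09), Gdf7 (0.71 ± 0.09) and Bmp8b (0.42 ± 0.14) were each higher from low levels. The receptor and co-receptor genes Bmpr2 (0.70 ± 0.09), Rgmb (0.41 ± 0.07) and Acvrl1 (0.57 ± 0.13) were higher too. So was Eng (1.03 ± 0.05), from an untreated mean of 17.9 RPKM. Smad4, which joins SMAD1 and SMAD5, was higher by 0.27 ± 0.05. Gata3, Hand1, Bmp8a and Acvrl1 had untreated means under 1 RPKM and passed the filter only with the arsenite libraries. A call as lower was thus hardly open to them.

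In the same libraries the 10 ES cell markers summed to 2874 to 2992 RPKM with arsenite, against 5379 to 5462 RPKM untreated, with 9 called lower and 1 higher. The 11 trophectoderm markers summed to 179.8 to 185 RPKM with arsenite, against 104 to 105 untreated, with 8 of 9 tested higher and 1 lower. Fibroblast and smooth muscle markers summed to 167 to 171 RPKM with arsenite, against 74.3 to 75.0 untreated, with 5 of 6 tested higher and 1 lower and with Lum at 0 in both groups. Primitive streak and mesoderm markers summed to 14.4 to 15.9 RPKM with arsenite, against 4.54 to 4.97 untreated, with 2 of 2 tested higher. Primitive endoderm markers summed to 54.1 to 55.9 RPKM with arsenite, against 35.7 to 37.6 untreated (4 higher and 1 lower of 6 tested), and neural markers to 39.97 to 43.8 RPKM with arsenite, against 53.4 to 54.7 untreated (2 higher and 3 lower of 5 tested). Gata3, Hand1, Pdgfrb, Wnt3, Gata6 and Dab2 had untreated means under 1 RPKM and passed the filter only with the arsenite libraries. A call as lower was hardly open to them. The reverse held for Sox1, with an arsenite mean under 1 RPKM. The part of all these marker lists in the Smad6 and Id results was not tested.

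**Figure D2:**
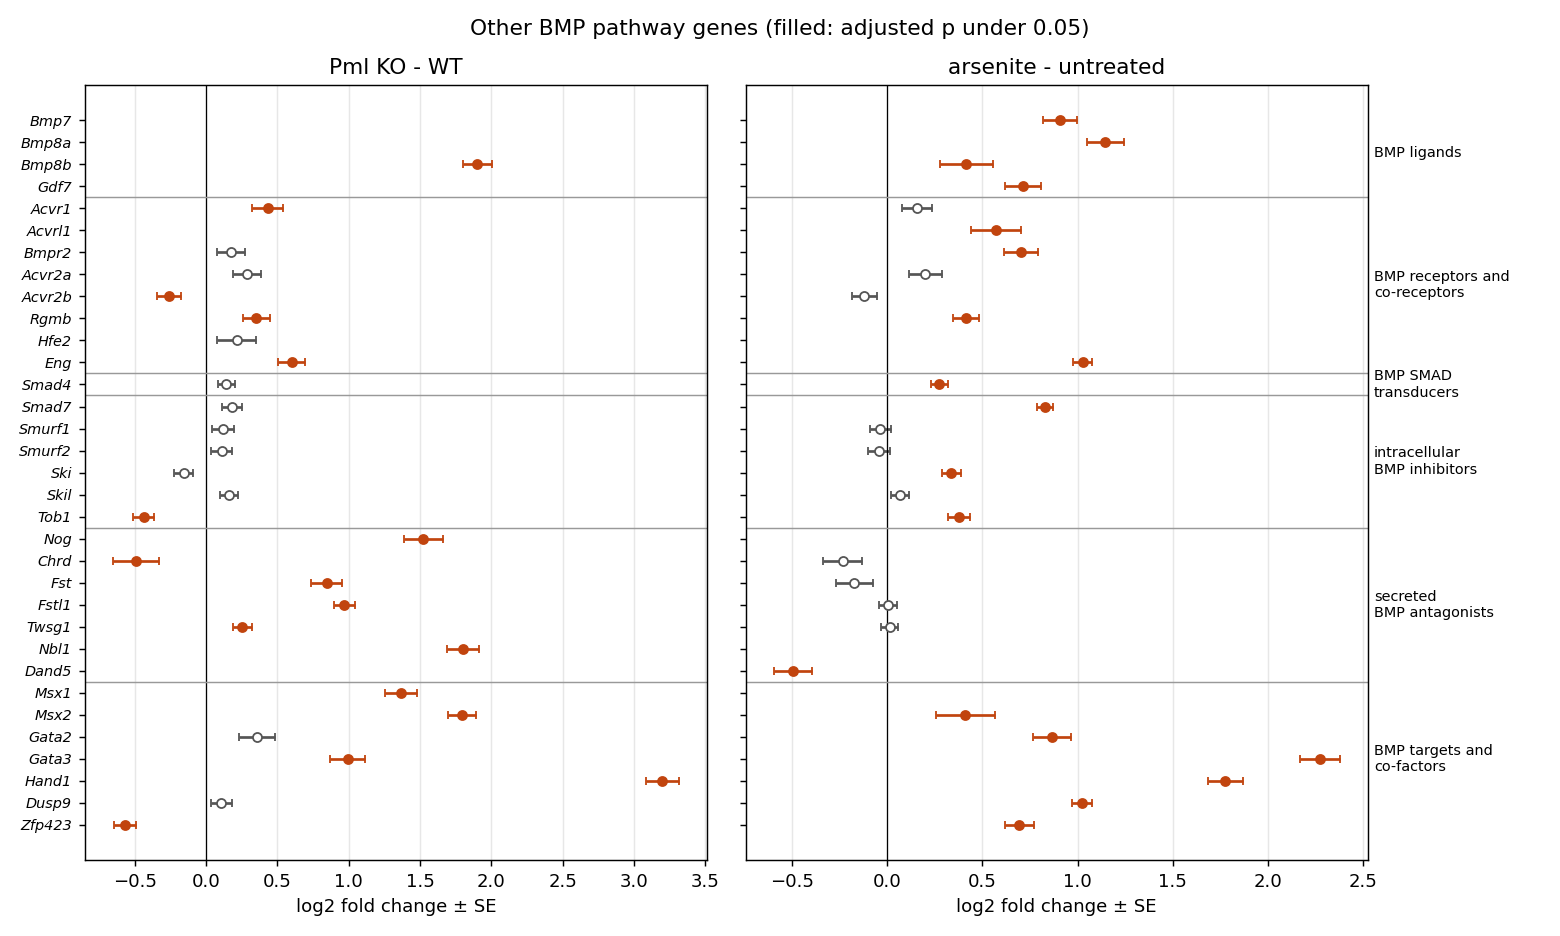
Log2 fold change ± SE of the other BMP pathway genes that passed the filter, by role, for Pml KO minus WT (left) and arsenite minus untreated (right); filled points have an adjusted p under 0.05 and a missing point means that the gene was not tested there. Secreted antagonists lie to the right of 0 on the left panel, apart from Chrd. None is called higher on the right panel, where Nbl1 and Nog were not tested.

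Activin A and SB431542 were compared as the mean over both genotype labels, a difference that an exchange of labels within a treatment does not alter. No member was called by limma, against 13 of 11914 genes (0.109%), and 3 members had an unadjusted p under 0.05. On the activin branch, Lefty1, a target of Nodal and SMAD2, was higher with activin A by 4.04 ± 0.24 (adjusted p = 5.57e-04), and Lefty2, from the same gene pair, differed by 1.93 ± 0.39 without passing the test (adjusted p = 0.229). Smad7 was the one other pathway gene called of 29 tested (2.40 ± 0.16, adjusted p = 7.64e-04), at 20.6 and 20.4 RPKM in the libraries labelled KO and 26.8 and 22.3 in those labelled WT with activin A, against 4.83 and 2.54 in those labelled KO and 3.41 and 3.24 in those labelled WT with SB431542.

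Smad6, the inhibitory SMAD of the BMP branch, came closest among the members. It had 3.28 and 1.95 RPKM in libraries labelled KO and 2.06 and 2.03 in libraries labelled WT with activin A, against 1.55 and 0.863 in libraries labelled KO and 1.66 and 1.14 in libraries labelled WT with SB431542. All 4 activin A libraries lay above the 4 SB431542 libraries, with a difference of 0.53 ± 0.17 that failed the correction (unadjusted p = 0.0124 from limma over 8 libraries, adjusted p = 1.00). Id4 (0.34 ± 0.14) and Smad5 (0.32 ± 0.13) were the other members with an unadjusted p under 0.05, 0.0394 and 0.0435 from limma. Mean activin A effects on the BMP targets Id1 (-0.04 ± 0.16), Id2 (-0.05 ± 0.19) and Id3 (-0.27 ± 0.17) did not pass, and neither did those on Bmp4 (-0.36 ± 0.25), Bambi (0.25 ± 0.12), Bmpr1a (0.13 ± 0.12) or Smad1 (0.04 ± 0.11).

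**Figure D3:**
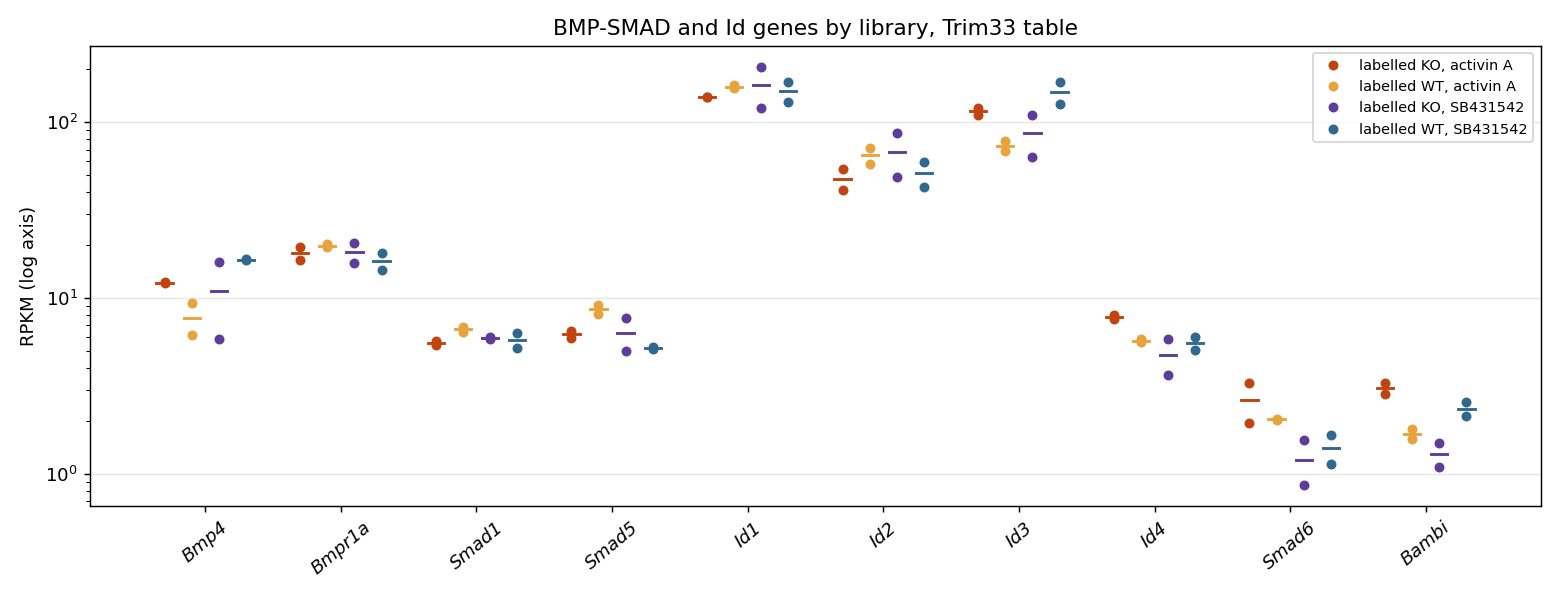
Level of each of the 10 genes in RPKM, on a log axis, in the 8 libraries of the Trim33 table, with points for libraries, short lines for group means and colours for treatment and genotype label. The libraries labelled KO with SB431542 are the widest apart, for example 15.97 and 5.83 RPKM for Bmp4.

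Between the genotype labels, 0 of 10 members were called by limma with activin A, where 9.43% of 11914 genes were called, and 0 of 10 with SB431542, where 9.56% were called. In each case 2 members had an unadjusted p under 0.05, and these were Bambi and Id3 both times. The 2 comparisons have no library in common but share 1 estimate of the spread.

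Bambi had 3.28 and 2.84 RPKM in libraries labelled KO with activin A, against 1.79 and 1.58 in those labelled WT with activin A. The groups did not overlap and the ratio of means was 1.81 (0.59 ± 0.18, adjusted p = 0.0668). With SB431542 it had 1.502 and 1.10 RPKM in libraries labelled KO, against 2.14 and 2.56 in those labelled WT, the opposite direction by label and again without overlap (-0.54 ± 0.18, adjusted p = 0.0881).

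Id3 had 120.2 and 111 RPKM in libraries labelled KO with activin A, against 78.1 and 68.4 in those labelled WT with activin A (0.65 ± 0.24, adjusted p = 0.125). With SB431542 it had 111 and 63.7 RPKM in libraries labelled KO, against 169 and 127 in those labelled WT (-0.79 ± 0.24, adjusted p = 0.0736). Neither pair of groups overlapped, and the sign by label was opposite in the 2 treatments, as for Bambi, for Trim33 and for each of the other 8 members. Fitted on the 4 activin A libraries alone, both genes were called higher in the libraries labelled KO (Id3 adjusted p = 0.0106, Bambi adjusted p = 0.0431). Fitted on the 4 SB431542 libraries alone, neither gene was called. Leaving out either library labelled KO with SB431542 also gave both calls with activin A. Without the first of those libraries, Id3 (-1.19, adjusted p = 0.0159) and Bmp4 (-1.36, adjusted p = 0.0160) were called lower in the library labelled KO with SB431542 than in those labelled WT.

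The genotype-label difference with activin A was also tested against that with SB431542. Because Trim33 is turned between the labels, this contrast sets the 2 groups in which Trim33 was low against the 2 in which it was high, and it cannot tell a difference that turns with treatment from one that goes with Trim33, or with Y-linked RNA, in both treatments. Of the 10 members Id3 (1.45 ± 0.34, adjusted p = 0.0150) and Bambi (1.14 ± 0.25, adjusted p = 0.0108) were called, where 26.3% of all genes were called; 16.1% were called with a positive sign and 10.1% with a negative one, so the members' share was not above that of all genes. Taken as labelled KO minus WT with activin A and as labelled WT minus KO with SB431542, the 2 differences were of like size, 0.59 and 0.54 for Bambi and 0.65 and 0.79 for Id3. The call for Id3 was lost without replicate 2 of the libraries labelled WT with activin A (adjusted p = 0.0576). Trim33, with an opposite sign (-5.23 ± 0.25, adjusted p = 1.35e-05), was among the genes called. Read beside Trim33 and without regard to label, Bambi was at 2.14 to 3.28 RPKM in the libraries where Trim33 was at 2.44 to 2.94 RPKM, and at 1.10 to 1.79 RPKM in those where Trim33 was at 18.3 to 24.6 RPKM. Id3 was at 111 to 169 RPKM in the first of these sets and at 63.7 to 111 RPKM in the second, and Id1 overlapped widely.

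**Figure D4:**
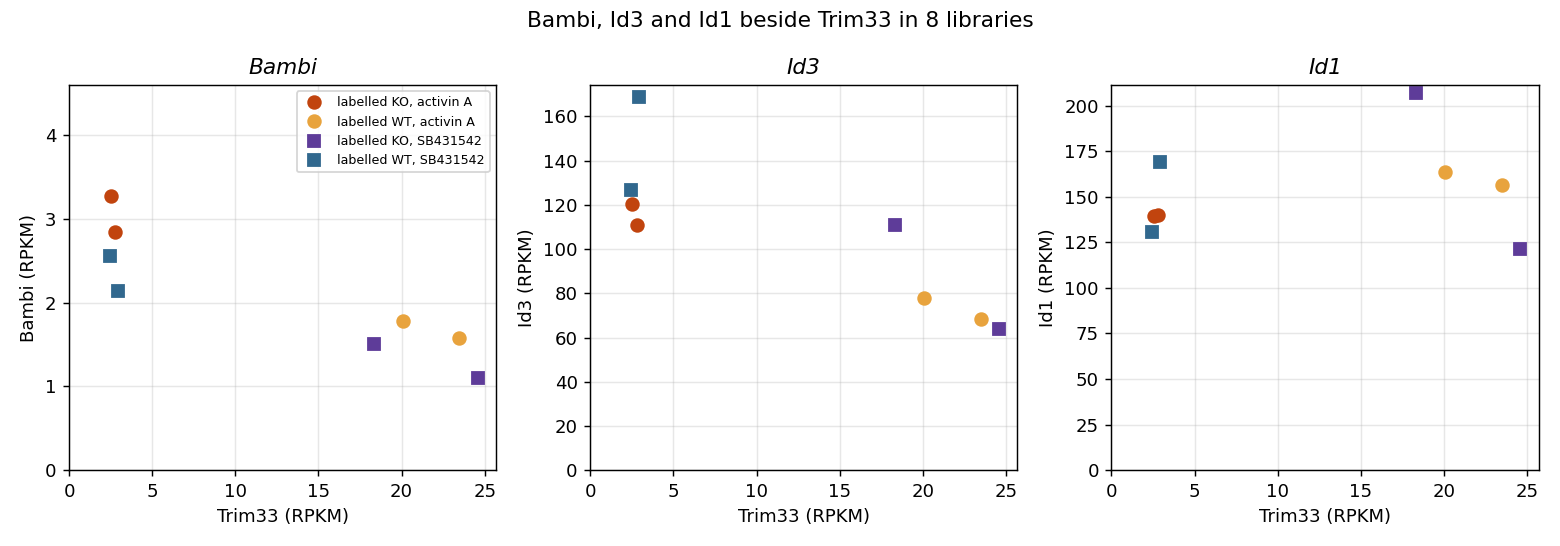
Level of Bambi, Id3 and Id1 (RPKM, vertical axes from 0) against that of Trim33 (RPKM) in each of the 8 libraries; circles had activin A and squares SB431542, and colours give the genotype label. Libraries with Trim33 under 3 RPKM have the higher Bambi values whichever label they carry, whereas Id1 overlaps.

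Bmp4 in the Trim33 table was too variable for a statement. It had 12.2 and 12.3 RPKM in libraries labelled KO with activin A, against 9.34 and 6.16 in those labelled WT with activin A (0.62 ± 0.36, adjusted p = 0.315). With SB431542 it had 15.97 and 5.83 RPKM in libraries labelled KO, against 16.5 and 16.6 in those labelled WT (-0.70 ± 0.36, adjusted p = 0.258). The groups did not overlap in either treatment, but the libraries labelled KO with SB431542 differed from each other more than the group means did.

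Id1 had 139.6 and 139.7 RPKM in libraries labelled KO with activin A, against 164 and 156 in those labelled WT with activin A (-0.19 ± 0.23, adjusted p = 0.645). With SB431542 it had 207 and 121 RPKM in libraries labelled KO, against 169 and 131 in those labelled WT, and the groups overlapped (0.09 ± 0.23, adjusted p = 0.851). Id2 had 54.4 and 41.3 RPKM in libraries labelled KO with activin A, against 71.6 and 58.2 in those labelled WT with activin A (-0.44 ± 0.27, adjusted p = 0.354). With activin A both Id genes were lower in each library labelled KO, by less than the test required. With SB431542 Id2 had 87.3 and 48.8 RPKM in libraries labelled KO, against 59.5 and 43.1 in those labelled WT, with overlap (0.36 ± 0.27, adjusted p = 0.461).

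Id4 had 7.59 and 8.01 RPKM in libraries labelled KO with activin A, against 5.82 and 5.62 in those labelled WT with activin A, without overlap (0.39 ± 0.20, adjusted p = 0.259). Smad5 had 6.49 and 5.93 RPKM in libraries labelled KO with activin A, against 8.12 and 9.16 in those labelled WT with activin A, also without overlap (-0.42 ± 0.19, adjusted p = 0.205). With SB431542 the labelled groups overlapped for both, Id4 having 5.84 and 3.66 RPKM in libraries labelled KO, against 6.02 and 5.09 in those labelled WT. Smad1 and Bmpr1a stayed between 5.22 and 6.88 RPKM and between 14.4 and 20.7 RPKM over the 8 libraries, and no contrast called either.

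**Figure D5:**
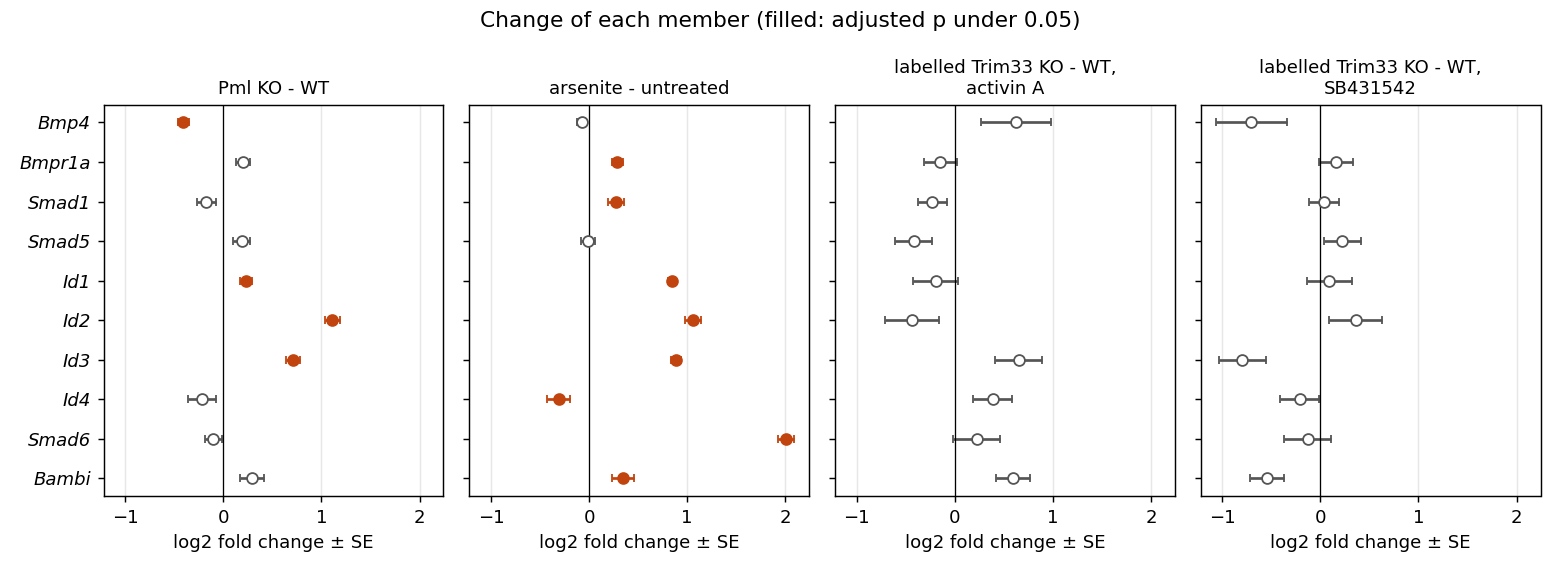
Log2 fold change ± SE of each of the 10 genes in 4 comparisons, from left to right Pml KO minus WT, arsenite minus untreated, and labelled Trim33 KO minus WT with activin A and with SB431542; filled points have an adjusted p under 0.05. Error bars are wider in the Trim33 panels, and all 10 genes change side between those panels, as did 86.2% of all genes tested.

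Among the other pathway genes, Eng and Hand1 were the 2 called higher of 29 tested between labels with activin A, and the same 2 genes were the ones called lower with SB431542; this is 6.9% in each case, against the 9.43% and 9.56% of all genes. Eng had 7.50 and 8.56 RPKM in libraries labelled KO, against 4.68 and 3.95 in those labelled WT with activin A (0.77 ± 0.17, adjusted p = 0.0274). With SB431542 Eng had 4.11 and 4.04 RPKM in libraries labelled KO, against 7.89 and 10.1 in those labelled WT (-0.97 ± 0.17, adjusted p = 0.0118). The contrast of the 2 label differences was called for 9 of the 29 genes (31%, against 26.3% of all genes). Of these, 8 had a positive sign, as for Id3 and Bambi, and 1 a negative sign, Zfp423 (-0.73 ± 0.21), which encodes a SMAD partner on BMP targets. Among the 8, Dlx3, Gata3 and Dand5 had means under 1 RPKM in both groups with high Trim33. They passed the filter only with the libraries where Trim33 was low.

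Marker levels of other cell types also differed between these libraries. The 7 neural markers summed to 135 to 145 RPKM in libraries labelled KO with activin A, against 77.0 in both of those labelled WT with activin A, and to 70.9 to 77.6 RPKM in libraries labelled KO with SB431542, against 123 to 141 in those labelled WT. Most of this sum was Tubb3. Its means were 125 RPKM labelled KO and 55.3 labelled WT with activin A, and 57.1 labelled KO and 118 labelled WT with SB431542. The sum was thus higher, without overlap, in the same groups as Bambi and Id3. The same contrast called 1 of 5 tested with a positive sign, Tubb3, and 2 with a negative one, Sox1 and Map2. The sums of trophectoderm markers were 204 to 285 RPKM in libraries labelled KO with activin A, against 157 to 210.4 in those labelled WT with activin A, and 155 to 209 RPKM in libraries labelled KO with SB431542, against 195 to 275 in those labelled WT, and 4 of 10 tested were called by the contrast, all with a positive sign (median 0.92). Fibroblast and smooth muscle markers summed to 219 to 360 RPKM in libraries labelled KO with activin A, against 223 to 252 labelled WT with activin A, and to 235 to 246 RPKM labelled KO with SB431542, against 202 to 342 labelled WT; their ranges crossed, while 4 of 7 tested were called with a positive sign (median 1.00). Of the ES cell markers 2 of 10 were called with each sign, of the primitive streak and mesoderm markers 1 of 3 with a negative sign, and of the primitive endoderm markers 0 of 4 by limma, with 1 at an unadjusted p under 0.05. Gata3 and Col1a2, both called with a positive sign, had means under 1 RPKM in both groups with high Trim33. They passed the filter only with the libraries where Trim33 was low. The reverse held for Sox1 and Map2, with means under 1 RPKM in both groups with low Trim33. A positive sign was hardly open to Sox1 and Map2. The part of all these marker lists in the Bambi and Id3 results was not tested.

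Patterns were compared across the 16 libraries, each value taken on the log2(value + 1) scale relative to its table's mean. That of Id1 was followed by Id2 (Pearson r = 0.85), Smad6 (r = 0.75) and Id3 (r = 0.61). It was hardly followed by Bmpr1a (r = 0.36), Bambi (r = 0.19) or Bmp4 (r = 0.12). In single comparisons the signs were not always alike. In Pml KO cells Id1 differed by 0.23, Id2 by 1.11, Id3 by 0.71 and Smad6 by -0.10. Between labels with activin A, Id1 differed by -0.19, Id2 by -0.44, Id3 by 0.65 and Smad6 by 0.22. With SB431542 each of these signs was the opposite one. Of 10488 genes tested in all 3 tables, the 5 with the highest r to Id1 were Dolk (0.92), Hspb8 (0.91), Ddx58 (0.91), Arpc2 (0.90) and Fam110a (0.89), and Id2 ranked 31st. Hspb8, which encodes a small heat shock protein, was at 44.3 to 46.9 RPKM in arsenite libraries, against 20.7 in both untreated libraries, and at 12.2 to 13.9 FPKM in Pml KO libraries, against 12.5 to 12.9 in WT libraries. Bmp4 and Smad5 ran opposite to each other (r = -0.92). These coefficients are descriptions and carry no test, because the libraries share tables, treatments and scaling.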

How the data were processed

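Libraries were made from total RNA of mouse ES cells with an Illumina TruSeq RNA kit, as the labels' protocols say. FastQC 0.11.5, Bowtie2 2.3.3, SAMtools 1.9, featureCounts 2.0.1, DESeq2 and the build mm10 are named in the submitters' processing notes without their roles, and whether reads were counted by strand is not given there. The authors deposited 3 tables with 1 column per library: FPKM for Pml, RPKM for arsenite, and a Trim33 table that names no unit and behaves as RPKM. Low values of 2344 single-exon genes gave whole reads (within 0.05 of a read) in 90% to 94.4% of cases in the last 2 tables, which gives their depth, and in 20.3% to 24.5% in the Pml table. Tables were normalised separately, so tests stay within a table. Columns of untreated cells are headed with a letter that their titles lack, and were assigned to that group without a library number.

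After 27 date-like names were dropped from each table, values were tested as log2(value + 1), which understates changes of low genes, with limma 3.58.1 in R 4.3.3 (two-sided, lmFit then eBayes with an intensity trend, p-values adjusted by Benjamini-Hochberg over all genes tested). The Pml and arsenite fits had 4 libraries and 2 residual degrees of freedom, and the Trim33 fit had 8 libraries and 4, so the error of a gene leans on the spread limma pools over genes. No count model was run, since FPKM and RPKM are not counts. Named genes are the 10 members, label checks, up to 4 called genes per pathway list and comparison with the smallest p, and the 5 genes most like Id1; the members, the pathway lists and the lists of ES cell, trophectoderm, primitive streak, fibroblast, primitive endoderm and neural markers were chosen with earlier results of these data known. Chrd, Acvr2b, Twsg1, genes named for how they passed the filter and single cell type markers were named after their values were seen. The Y-linked genes and the genes that overlap with members were named after their values or positions were seen. Gene coordinates are those of GENCODE on GRCm38, the assembly of mm10, and promoter windows those of RefSeq. Python 3.11.15, numpy 2.4.6, pandas 2.3.3 and matplotlib 3.10.9 were used for the rest. The fits were tested on simulated data. Alternatives changed the pseudocount (0.1), the filter (either none, or a stricter one that asked both for 1 in every library of a group and for 5 in 2 libraries), the scaling, the variance prior, the replicate block, the libraries fitted and each left-out library; a library left alone in its group was assumed to vary like the others. No 2 libraries of a group held identical values.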

Additional observations from a re-analysis of the deposited data

Results flagged for a closer look

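The difference between genotype labels with activin A and that with SB431542 lay 1.14 apart on the log2 scale for Bambi (labelled KO minus WT with activin A, minus the same with SB431542; limma adjusted p = 0.0108). In both libraries labelled KO with activin A it was above both labelled WT, and in both labelled KO with SB431542 it was below both labelled WT. The same test gave 1.45 for Id3 (limma adjusted p = 0.0150), with the same arrangement of libraries. Trim33 and Y-linked genes turn between the labels in the same way, so these values do not show that either difference depends on treatment. With the SB431542 difference taken as labelled WT minus KO, Bambi differed by 0.59 with activin A and 0.54 with SB431542, and Id3 by 0.65 and 0.79.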

How the results depend on the processing

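Over the alternatives run, Smad6, Id1, Id2, Id3 and Bmpr1a stayed called higher with arsenite, and Id2, Id3 and Bmp4 stayed called in Pml KO cells. Id1 in Pml KO cells lost its call with no filter (adjusted p = 0.0930), with no intensity trend (0.0741) and without Pml KO replicate 2 (0.0594), and Bmpr1a gained one under quantile normalization (0.0462). With arsenite, Id4 lost its call with a pseudocount of 0.1 (0.0518), with no intensity trend (0.0528) and with no filter (0.126), where Bambi (0.0793) and Smad1 (0.0550) lost theirs too. Thus 5 members rather than 8 were called with no filter. Called members between labels with activin A numbered 1 with no intensity trend (Bambi) and 2 with only the 4 libraries compared, where 1852 genes were called in all rather than 1123. For SB431542 that restriction called no member and gave 608 genes rather than 1139. The mean activin A effect was called for 8 genes with no filter rather than 13. The contrast of the label differences was called for 1 member under the stricter filter, which removes Bambi. The cause was not tested where none is given.

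Leaving out 1 library at a time gave 4 to 5 called members and 2985 to 3895 called genes in the Pml table, and 5 to 8 and 6420 to 7482 in the arsenite table. It gave 0 to 2 members and 185 to 1546 genes for the labels with activin A, and 0 to 2 and 294 to 1036 for the labels with SB431542. For activin A against SB431542 it gave 0 members and 7 to 16 genes. For the contrast of the label differences it gave 1 to 5 members and 1853 to 3395 genes; the 5 members, Id3, Bambi, Id4, Bmp4 and Smad5, came without replicate 1 of the libraries labelled KO with SB431542. Signs turned only for members without a call. Under quantile normalization Smad6 turned to 0.042 between labels with SB431542. The log2 fold changes that changed sign with 1 library left out are given as ranges. For arsenite the range was Smad5 -0.031 to 0.0096. For the labels with activin A the range was Smad6 -0.045 to 0.49. For the labels with SB431542 the range was Id1 -0.29 to 0.47, Id2 -0.055 to 0.77, Id4 -0.49 to 0.065, Smad6 -0.36 to 0.095, Smad1 -0.086 to 0.16, Smad5 -0.039 to 0.48 and Bmpr1a -0.021 to 0.34. For activin A against SB431542 the range was Id1 -0.23 to 0.15, Id2 -0.26 to 0.15 and Smad1 -0.017 to 0.11. For the contrast of the label differences the range was Id1 -0.67 to 0.098.

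Nothing in the labels says that replicate numbers mark a shared culture or day, and 2 libraries a group are too few to settle it from the data. Differences between replicates correlated, across genes, at 0.023 between the Pml groups and at -0.14 to 0.60 between pairs of Trim33 groups, with 0.60 between the groups with low Trim33 and 0.37 between those with high Trim33. With the replicate block, 4324 genes rather than 4130 were called in the Pml table, with no member's call changed. In the Trim33 table the replicate block gave 1 called member with activin A (Id3, adjusted p = 0.0454) and 1 with SB431542 (Id3, adjusted p = 0.0248), added Id2 to the contrast of the label differences (adjusted p = 0.0233), and gave 23 genes for activin A against SB431542. No paired analysis was possible for arsenite because the untreated columns carry no number that ties them to a titled replicate.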
